A study of Mus musculus with 4 samples.

Results

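Nppa and Pam encode the stored hormone and a major granule protein of the heart's atrial muscle cells, and each was covered by 1 of the 558 regions of a table of RNA captured from mouse hearts with an antibody against N4-acetylcytidine (ac4C). The 2 regions were found by the overlapped gene name after repeated lines had been reduced to distinct regions. They were chosen by their counts, which were lower in NAT10 knockout than in control hearts, so that difference is described here without a test and supports nothing further. N4-acetylcytidine is a modified RNA base, written by the acetyltransferase NAT10. The groups were 2 libraries from NAT10 knockout hearts and 2 from control hearts, all from C57BL/6 mice that carried the treatment label HFD+STZ+Exercise in a series on diabetic cardiomyopathy. Diet, STZ and exercise were thus shared by both groups. The labels do not give age or sex, whether the knockout was limited to heart muscle, or whether the libraries came from separate animals. Libraries without capture were not used here, so RNA abundance and ac4C on the RNA cannot be told apart as the source of a difference.

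Nppa encodes the precursor of atrial natriuretic peptide, which atrial muscle cells store in granules and release when the wall is stretched. The peptide acts on a guanylyl cyclase receptor to promote salt excretion and vessel relaxation. In healthy adult hearts the ventricles hold little of its mRNA, and loaded or failing ventricles make more. Pam encodes peptidylglycine alpha-amidating monooxygenase, a copper- and ascorbate-dependent enzyme that amidates the carboxyl end of many peptide hormones. Atrial natriuretic peptide is not amidated, yet Pam is a main membrane protein of atrial granules, and mice without Pam in heart muscle cells have few such granules.

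The regions themselves have no positions in what was used here, so each is placed by its gene. The table lists Nppa (ENSMUSG00000041616) on the plus strand of chromosome 4 from 148085179 to 148086536. GENCODE M21 places the gene on GRCm38 at chr4:148000722-148002079 with 3 exons, so the table's positions are not those of GRCm38. The antisense gene Gm13054 overlaps the same region and on GRCm38 covers 989 of the 1358 bases of Nppa. Exons of Gm13054 cover 532 of the 865 exonic bases of Nppa. How strands were counted is not given in the labels or headers, so reads of Nppa and of Gm13054 cannot be told apart. The Pam region (ENSMUSG00000026335) is listed with the pseudogene Btf3-ps1, on the minus strand of chromosome 1 from 97876626 to 97877114 in the table. On GRCm38, Pam spans chr1:97795114-98095646 on the minus strand, and its longest coding transcript has 26 exons. Whether the region lies in an exon or an intron of Pam is not known, and reads from a copy of Btf3 cannot be told from reads of Pam. A BLASTN search of 5 Btf3 transcripts against the 15 annotated Pam transcripts gave 0 matches with an E-value under 1e-05. The search did not cover introns of Pam, so it cannot show whether the region holds a copy of Btf3.

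The coding sequences are shown since ac4C sits on cytidines, and base-resolution maps of human cells with raised NAT10 placed it mostly at CCG. For each gene the stretch of 90 coding bases with the most CCG is given from the GENCODE M21 transcript with the longest coding sequence, with every CCG in capitals. Bases 145 to 234 of the Nppa coding sequence held 4 CCG, and bases 1 to 90 of Pam held 3.
Nppa: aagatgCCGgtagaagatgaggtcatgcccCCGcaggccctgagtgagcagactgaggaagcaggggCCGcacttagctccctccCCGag
Pam: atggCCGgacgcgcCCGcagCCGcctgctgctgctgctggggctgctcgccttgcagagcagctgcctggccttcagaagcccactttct
The Nppa coding sequence of 456 bases held 7 CCG, or 15.4 per 1000 bases. That rate lay above that of 76.7% of the 317 coding genes of the table and above 84.2% of 21703 annotated coding genes. The Pam coding sequence of 2937 bases held 20 CCG, or 6.81 per 1000 bases, above 24.3% of the genes of the table. Codons ended in C at a share of 37.5% in Nppa and 25.4% in Pam, beside a median of 31.4% over the table's genes. Nppa was thus above the median of these genes in both measures and Pam below it. Whether the 2 regions lie in these coding sequences is not known. These values describe annotated letters, and no acetylated base was located.

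**Figure D1:**
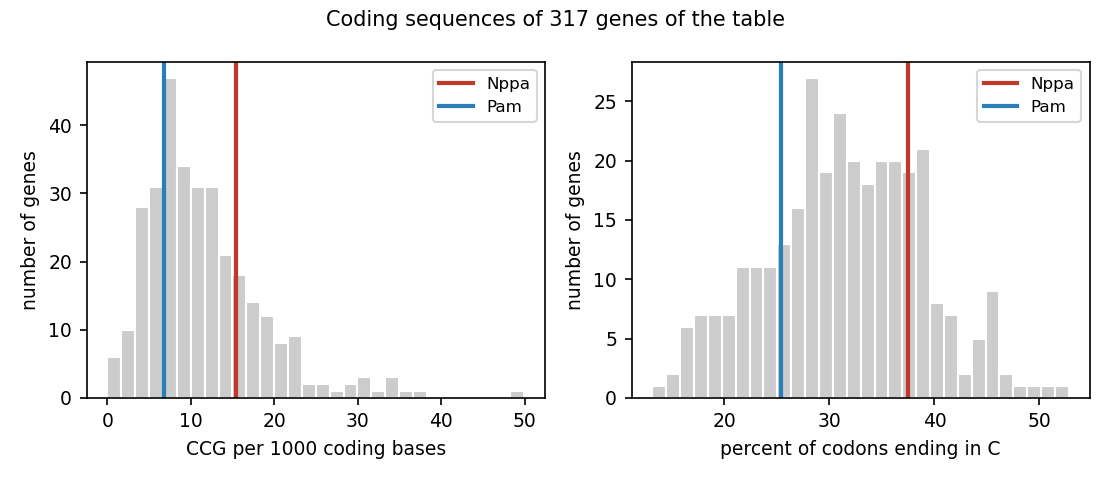
Histograms of CCG per 1000 coding bases (left) and of the percent of codons ending in C (right) over 317 coding genes of the table, with the number of genes on the y axis and vertical lines for Nppa and Pam. Nppa lies at 15.4 CCG per 1000 bases and 37.5% of codons, to the right of Pam at 6.81 and 25.4%.

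The promoters are shown because both members were lower in the same libraries. Each stretch runs from 250 bases before to 50 after the RefSeq transcript start on GRCm38.p6, at chr4:148000472-148000771 on the plus strand for Nppa and chr1:98095597-98095896 on the minus strand for Pam, the first of its 2 listed starts. Capitals mark matches on either strand to the motif of GATA factors, TGATAA, the motif of NKX2-5, TNAAGTG, the core of the TATA box, TATAAA, and the GC box motif, GGGCGG, which did not overlap each other.
Nppa: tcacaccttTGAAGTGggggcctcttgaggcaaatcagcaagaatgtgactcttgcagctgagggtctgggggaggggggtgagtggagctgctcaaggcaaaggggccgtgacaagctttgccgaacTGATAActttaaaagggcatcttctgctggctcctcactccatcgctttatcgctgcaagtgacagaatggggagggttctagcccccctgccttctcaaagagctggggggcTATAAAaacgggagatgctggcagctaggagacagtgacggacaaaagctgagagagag
Pam: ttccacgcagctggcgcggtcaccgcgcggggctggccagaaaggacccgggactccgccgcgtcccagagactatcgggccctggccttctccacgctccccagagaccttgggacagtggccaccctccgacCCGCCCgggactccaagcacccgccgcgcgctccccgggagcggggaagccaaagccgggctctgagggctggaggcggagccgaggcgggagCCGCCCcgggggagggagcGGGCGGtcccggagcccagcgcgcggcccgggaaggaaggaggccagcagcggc
The Nppa promoter held 1 NKX2-5 motif at -241, 1 GATA motif at -122 and 1 TATA box at -9 from the RefSeq start, and no GC box. Of 27025 promoters of the same length, 11.5% held the NKX2-5 motif, 9.26% the GATA motif and 14.2% the TATA box. The Pam promoter held 3 GC boxes, at -116, -23 and -4, and none of the other 3 motifs. A GC box stood in 35.9% of promoters. The SRF CArG box was in neither sequence and in 1.57% of promoters. G and C made up 54.7% of the Nppa promoter and 76.3% of the Pam promoter, beside a median of 52.7%. The 2 promoters shared none of the 5 motifs searched. These motifs were chosen after the sequences were seen, so nothing is read from that.

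The Nppa region had 468 and 270 counts in the NAT10 knockout libraries, against 1242 and 1405 in the control libraries. Both knockout counts lay below both control counts, although knockout replicate 1 had the largest total of the 4. After TMM scaling over all distinct regions, these were 429 and 423 normalised counts (CPM over the table's counts) in knockout and 2006 and 2046 in control. Both knockout libraries lay below both controls in 22.2% of all regions after scaling, and since the choice of members fixes that order for Nppa and Pam, nothing is read from it. Nppa averaged 426 ± 4.01 in knockout and 2026 ± 27.8 in control (SD, n = 2 each), so knockout stood at 21.0% of control. The log2 fold change of knockout over control was -2.25 ± 0.12 (SE), the lowest of the 558 regions. The nearest libraries of the groups were 4.68-fold apart. The exact Poisson 95% intervals of the counts were 427 to 512 and 239 to 304 in knockout, and 1174 to 1313 and 1332 to 1480 in control. These intervals cover counting error only. Of regions with fewer than 200 counts, 77.9% to 83.3% had an even count in each library. Counts are therefore not independent molecules, and the true counting error can be larger.

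The Pam region had 126 and 74 counts in the knockout libraries, against 196 and 177 in the control libraries. Here too both knockout counts lay below both control counts, with a narrower gap than for Nppa. Scaled, these were 115 and 116 normalised counts in knockout and 317 and 258 in control. Pam averaged 116 ± 0.37 in knockout and 287 ± 41.6 in control (SD, n = 2 each), and knockout stood at 40.3% of control. The counting error alone is 8.91% and 11.6% of the knockout counts, so the small SD of the knockout libraries does not show their precision. The log2 fold change was -1.31 ± 0.19 (SE), the fourth lowest of the regions, and the nearest libraries of the groups were 2.22-fold apart.

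**Figure D2:**
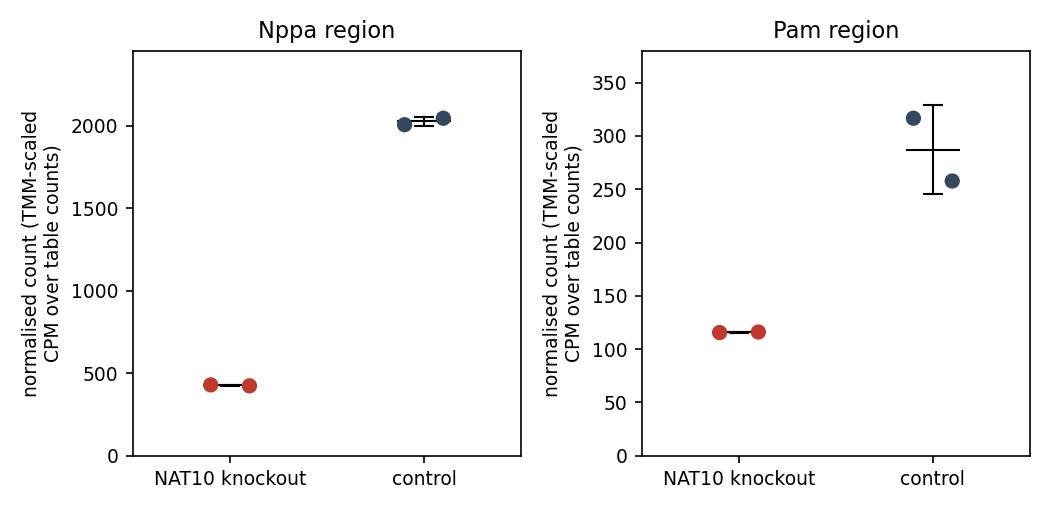
Normalised counts (TMM-scaled CPM over the table's counts, y axis from 0) of the Nppa and Pam regions in each library, with points for libraries, a horizontal line for the mean and error bars for the SD of 2 libraries. Nppa lies at 423 to 429 in knockout and 2006 to 2046 in control, and Pam at 115 to 116 in knockout and 258 to 317 in control.

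Over all regions the median log2 fold change was 0.01, and the central 90% ran from -0.64 to 0.75. Nppa and Pam thus lay outside that range, with Pdk4, a kinase that inhibits pyruvate dehydrogenase, and Stard10 as the other 2 of the 4 lowest regions. In the authors' deposited table, where positive values mean higher in control, the log2 fold change was 2.69 for Nppa and 1.15 for Pam. The median of that column in the authors' deposited table was -0.99. By size toward control, Nppa ranked 2 and Pam 19 of 558 in the authors' deposited table, and most values of that column lay on the knockout side, with 429 regions higher in knockout.

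Ratios of counts within a library need no scaling between libraries. The count of Nppa divided by that of Pam was 3.71 and 3.65 in knockout, against 6.34 and 7.94 in control. The 2 members were therefore lower by unequal factors, with the ratio in knockout at 0.52 of that in control. Against Myl2, the ventricular myosin light chain gene, Nppa stood at 0.27 and 0.26 in knockout and 1.82 and 1.84 in control. Pam against Myl2 stood at 0.073 and 0.071 in knockout and 0.29 and 0.23 in control. Myl2 itself was higher in knockout, which widens these ratios. For Myh6, the alpha myosin heavy chain gene, counts were summed over 15 regions. Of these, 0 passed the edgeR test, where 3.94% of all regions did. By the DESeq2 Wald test 0 passed, where 5 of all 558 regions did. At an unadjusted edgeR p below 0.05, 0 passed, with no share of all regions given here. Nppa against Myh6 was at 0.0102 and 0.00946 in knockout and 0.0455 and 0.0464 in control. Pam against Myh6 was at 0.00274 and 0.00259 in knockout and 0.00718 and 0.00584 in control. The groups did not overlap in any of these 5 ratios, which all come from the contrast that picked the members and carry no test. Counts are not per length here, as the lengths of the regions are not known, so the size of a ratio does not compare the levels of 2 genes.

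**Figure D3:**
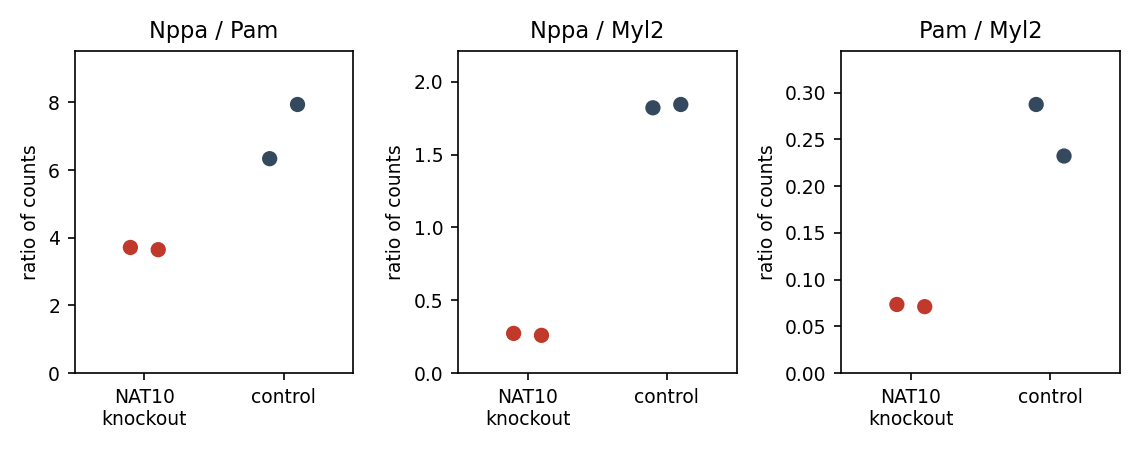
Ratio of counts within each library (y axis from 0, no scaling) for Nppa over Pam, Nppa over Myl2 and Pam over Myl2, with 1 point per library and NAT10 knockout left of control. The Nppa to Pam ratio is 3.65 to 3.71 in knockout and 6.34 to 7.94 in control.

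By count alone, Nppa ranked 149 of 558 regions in both knockout libraries and 57 and 56 in the control libraries. Its neighbours by mean normalised count were regions of Fth1 (424 ± 78.7) and Ttn (431 ± 90.6) in knockout, and of Mb (1933 ± 127) and Myh6 (2058 ± 80.7) in control (SD, n = 2 each). Pam ranked 305 and 295 in knockout and 173 and 189 in control. Next to it stood regions of Ccng1 (116 ± 18.3) and Rplp1 (116 ± 6.94) in knockout, and in control regions without an overlapped gene that are listed with Gm24119 (286 ± 0.39) and Mir101c (290 ± 55.9). Nppa held 0.0508% and 0.0389% of the counts of the knockout libraries and 0.184% and 0.205% of those of the controls.

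Likeness to each member was measured as the root mean square difference of log2 CPM, centred on each region's mean, over the 4 libraries. The 4 regions most like Nppa were those of Pdk4 (0.28), Pam (0.49), Chchd2-ps (0.60) and Stard10 (0.60). The 5 most like Pam were those of Chchd2-ps (0.21), Prpf19, a splicing factor gene (0.25), Enah, an actin regulator gene (0.28), Rhoq, a small GTPase gene (0.28), and 1 region of Jph2, a junctophilin gene (0.29). Pam was thus the second most like Nppa, while Nppa was number 65 in likeness to Pam, at the same distance of 0.49. With 4 libraries in 2 groups, the measure mostly follows the difference between groups, and it is given as a description.

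**Figure D4:**
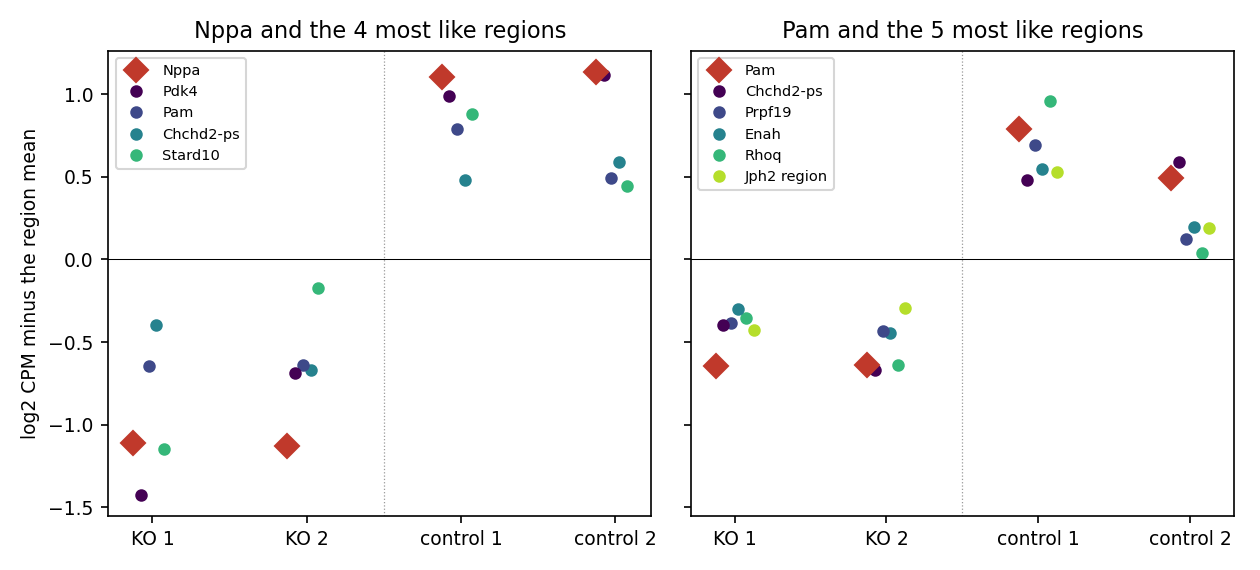
Log2 CPM minus the mean of each region (y axis) in each library for Nppa (left) and Pam (right), drawn as diamonds, and for the 4 regions most like Nppa and the 5 most like Pam, drawn as circles. Nppa lies near -1.11 to -1.13 in knockout and 1.11 to 1.14 in control, while Pam lies near -0.64 in knockout and at 0.79 and 0.49 in control.

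The table holds 4 other regions whose listed gene starts within 2000000 bases of Nppa, and 0 near Pam. Chchd2-ps, a pseudogene listed 67309 bases from Nppa, had 42 and 20 counts in knockout and 45 and 54 in control. Its log2 fold change was -1.10 ± 0.38 (SE), and it did not pass edgeR's quasi-likelihood test (Benjamini-Hochberg adjusted p = 0.107). Chchd2, the gene it is a copy of, had 166 and 68 counts in knockout and 78 and 94 in control, and its scaled values overlapped between groups. Reads of the copy and of Chchd2 may be split by the counting, so the value of Chchd2-ps is uncertain. The 2 regions of Mfn2, a mitochondrial fusion gene that is listed with Fv1, stood at -0.06 ± 0.19 (adjusted p = 0.870) and 0.08 ± 0.26 (adjusted p = 0.892). The first of them turned to 0.07 and 0.14 when scaled to totals alone or to 18S, and the second to -0.02 without control replicate 2. Tmem201, which encodes a nuclear membrane protein, stood at 0.62 ± 0.79 (adjusted p = 0.697). By edgeR 0 of these 4 neighbours passed, where 3.94% of all regions did in either direction. At an unadjusted edgeR p below 0.05, 1 of the 4 was lower, Chchd2-ps. With no share of all regions at that level given here, nothing is read from this count. By the DESeq2 Wald test 0 of the 4 passed, where 5 of all 558 regions did.

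Of 17 genes of the natriuretic peptide system, from Corin, the protease that cuts the precursor, to the receptor gene Npr1, the table given here holds 1, Nppa. Of 21 genes of peptide processing and secretory granules it holds 1, Pam, and of 19 genes for peptides that Pam can amidate it holds 0. The other genes of these lists, Nppb and Npr3 among them, were not analysed here. Of 20 atrial marker genes 2 were measured, Nppa and Stard10, a lipid transfer protein gene. The Stard10 region had 16 and 20 counts in knockout, against 42 and 34 in control. At such counts the scaled values were 14.7 and 31.4 in knockout and 67.8 and 49.5 in control, with no overlap. Both knockout libraries lay below both controls in 22.2% of all regions. The log2 fold change was -1.41 ± 0.53 (SE) and did not pass edgeR's quasi-likelihood test (adjusted p = 0.130). It ranged from -1.98 without knockout replicate 2 to -0.90 without knockout replicate 1. The Stard10 region also overlaps the antisense gene Gm20476. The count of Nppa over that of Stard10 was 29.2 and 13.5 in knockout and 29.6 and 41.3 in control, so the nearest libraries of the groups nearly met in this ratio. Sln, Myl4, Myl7 and the other 15 atrial markers were not analysed here, and the share of atrial tissue in each heart was not tested. In whole hearts, fewer atrial cells and less captured RNA per cell cannot be told apart.

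Of 14 genes listed as ventricular markers, Myh6 among them, 9 were measured, over 25 regions. Of these regions 4 rose, 0 fell and 21 did not pass, where 2.33% of all regions rose and 1.61% fell. The 4 were Pln with its overlapping genes Cep85l and Gm47644 (0.70 ± 0.15, edgeR adjusted p = 0.00378), Myl3 (0.67 ± 0.13, adjusted p = 0.000776), Lbh (0.55 ± 0.13, adjusted p = 0.0106) and Myl2 (0.53 ± 0.12, adjusted p = 0.00335). The list's median of 0.002 was near the 0.009 of all regions. Myh6, with 15 of the 25 regions, ranged from -0.11 to 0.21. Since Myh6 is also on the cardiomyocyte list, the median and the summed level do not describe ventricular markers alone. The 3 regions of Mb, the myoglobin gene, stood at -0.09, -0.11 and -0.18 with TMM factors, and 2 of them turned positive with totals alone and all 3 with scaling to 18S. With scaling to totals, to 18S and with the DESeq2 Wald test, 5, 4 and 2 of all 558 regions rose. In each of these the count of 4 was 1. With the replicate number as a block (replicate block) it was 0, with adjusted p of 0.275 for Pln, 0.155 for Myl3, 0.263 for Lbh and 0.234 for Myl2. The calls of Pln, Myl2 and Lbh were the ones that ended without control replicate 1, those of Pln and Myl2 ended without control replicate 2, and that of Lbh without knockout replicate 1. At an unadjusted edgeR p below 0.05, 6 of the 25 regions were higher and 0 lower. With no share of all regions at that unadjusted level given here, nothing is read from this count. These list genes were chosen with earlier results of these libraries known, so they are no independent sign beside Nppa. The summed level of the list was 59547 and 63169 normalised counts in knockout and 59879 and 59799 in control.

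**Figure D5:**
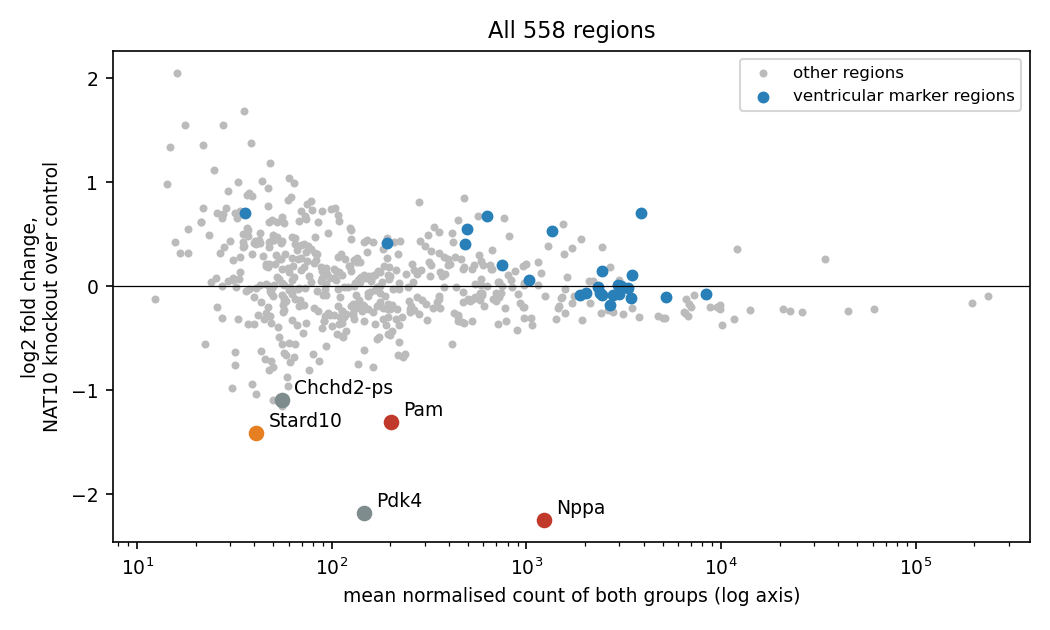
Log2 fold change of NAT10 knockout over control (y axis) against the mean normalised count of both groups (x axis, log scale) for all 558 regions, with ventricular marker regions in blue, Nppa and Pam in red, Stard10 in orange, and Pdk4 and Chchd2-ps in dark grey. Nppa at -2.25 and Pam at -1.31 lie below nearly all regions of like count. Ventricular marker regions, those of Myh6 included, lie from -0.18 to 0.70.

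Among 16 genes of wall stress and the fetal heart programme, 4 were measured. Beside Nppa, these were Actc1, the cardiac actin gene, with 3 regions at 0.19, 0.38 and 0.09, Des, the desmin gene, with 2 regions at -0.34 and -0.31, and Xirp2, a gene of an actin-binding protein, at -0.55 ± 0.38 (SE). None of these 6 other regions passed the edgeR test, where 3.94% of all regions did. Adjusted p ran from 0.0505 for the highest Actc1 region to 0.714, and that Actc1 region passed in 4 of 14 alternatives. These were without knockout replicate 1 (adjusted p = 0.0434), with halved counts (0.0276), with regions without an overlapped gene left out (0.0025) and with a crossed replicate block (0.00357). Of 8 genes of protein folding in the endoplasmic reticulum, where Nppa and Pam products enter the secretory path, 2 were measured. Hspa5, a chaperone gene, stood at 0.33 ± 0.20 (adjusted p = 0.397), and Canx, the calnexin gene, at 0.66 ± 0.37 (adjusted p = 0.345). At an unadjusted edgeR p below 0.05, 1 Actc1 region was higher, both Des regions were lower and 0 of the folding genes passed. By the DESeq2 Wald test 0 of these regions passed, where 5 of all 558 regions did. No share of all regions is given here for the unadjusted counts, so nothing is read from them.

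The libraries summed to 920818 and 693922 counts in knockout and 674687 and 686323 in control over the listed regions, which is not the depth of whole libraries. Of the cardiomyocyte markers, 5 of 7 genes were measured, over 49 regions. A contrast between the groups cannot check the tissue label that they share. By edgeR 1 region was higher and 0 lower, where 2.33% of all regions were higher and 1.61% lower. It was an Atp2a2 region, whose call ended without either control library. Leaving out a library leaves 1 in its group, so no count of the 49 regions is given for those fits. The summed level of the 49 regions was 79337 and 82426 normalised counts in knockout and 81325 and 81399 in control. The scaling used these regions among all others, so the sum is not independent of it. Cell content was not tested. Of the other cell types' lists, 2 of 7 smooth muscle and pericyte genes and 1 of 7 macrophage and leukocyte genes were measured. So were 1 of 5 blood genes and 1 of 5 adipocyte genes. Of the 7 regions of these lists, 0 passed by edgeR, where 3.94% of all regions did. By the DESeq2 Wald test 0 passed, where 5 of all 558 regions did. At an unadjusted edgeR p below 0.05, 3 of the 7 were higher in knockout, those of Abcc9, Cd74 and 1 region of Lpl. With no share of all regions at that level given here, nothing is read from this count. After adjustment, that Lpl region passed in 3 of 14 alternatives. Summed levels of these lists were 151 and 187 in knockout and 84.0 and 154 in control for smooth muscle and pericytes. For macrophages and leukocytes they were 103 and 103 in knockout and 48.5 and 84.4 in control. Blood stood at 54.1 and 18.8 in knockout and 32.3 and 45.1 in control, and adipocytes at 4138 and 3956 in knockout and 3232 and 3229 in control. Lpl, the adipocyte gene measured, is also made by heart muscle. Endothelial, fibroblast, nerve and epicardial markers were not analysed here, and the part of these cells in the values of Nppa and Pam was not tested. Nat10 itself was not analysed here, and the group labels were thus not checked against it.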

How the data were processed

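Hearts were flash frozen, Trizol was used to extract RNA, and ribosomal RNA was depleted before library making, per the labels' protocols, while antibody capture of ac4C is named in the series text. FastQC, Salmon and mm10 appear in the submitters' processing notes, with no version or role. The name mm10 stands for GRCm38, which the gene positions in the deposited table do not follow. No source used here names the region caller or counter. Values in the deposited table are raw whole-number counts for each region, per the file headers. The authors' log2 fold change is also in it, positive where control is higher, and the authors' p-value and q-value columns were deposited beside it and not used. Of 652 lines, 94 repeats of a region under several genes were removed, leaving 558. The 65 regions without an overlapped gene were kept.

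The test was that of edgeR 4.0.16 under R 4.3.3 (filterByExpr by group, which removed 0 regions, TMM factors of 1.18 and 0.92 in knockout and 0.92 and 1.00 in control, robust glmQLFit and glmQLFTest, Benjamini-Hochberg adjusted p below 0.05 over all 558 regions). Log2 CPM for likeness used a prior count of 2. Only the region test was tried on simulated counts, which did not model the excess of even counts seen here. The biological coefficient of variation was 12.6%. Depth and counting intervals stand beside the values. As the labels name no separate animals, p-values measure the spread between these samples, which may be technical. Nppa and Pam and all gene lists were chosen with earlier results of these data known. Genes were named by a rule: both members, list members (all of up to 6 measured, otherwise those past the test and the 4 of highest level), the 5 regions most like each member (1 of those of Nppa is not reported here), regions within 2000000 bases, and the next in level. The GATA, NKX2-5, TATA, GC and SRF motifs were chosen after the promoter sequences were seen, and Pdk4, Chchd2 and Myh6 were added for comparison. Alternatives were other scalings, filters, counts and tests (DESeq2 1.42.0 among them), a replicate block, and each library left out.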

Additional observations from a re-analysis of the deposited data

How the results depend on the processing

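The log2 fold change of Nppa (-2.25) kept its sign in the 14 alternatives run on it. It moved by more than the spread between replicates with scaling to totals alone (-2.11), upper-quartile factors (-2.28), scaling to the 18S region (-2.05) and counts summed per gene (-2.22). Leaving out 1 library each gave -2.26 to -2.24. That of Pam (-1.31) also kept its sign, was -1.10 with scaling to 18S, and ran from -1.46 to -1.15 without 1 library. Scaling to totals or 18S moved the median of all regions to 0.15 and 0.22. Relative to that median, Nppa stood at -2.26 and -2.27 and Pam at -1.32 in both. Totals include the 18S region, with 165622 and 135833 counts in knockout and 133394 and 132526 in control, although ribosomal RNA was depleted. A region that overlaps mt-Rnr1 and mt-Rnr2, the mitochondrial ribosomal RNA genes, held 209524 and 168031 in knockout and 157448 and 158340 in control. Both scalings thus depend on such regions. The 22 regions past the test became 8 with totals alone, 6 with 18S, 5 with the DESeq2 Wald test, and from 13 (without control replicate 2) to 37 (without knockout replicate 2) with 1 library left out; the cause was not tested. With the replicate block 1 region passed, where Nppa was at -2.25 and Pam at -1.31. The replicate numbers share no stated source, and the correlation of replicate differences between groups was -0.16. A crossed replicate block, chosen after seeing this, gave 42 regions.

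Of the values of other named regions and list counts under the alternatives, 374 stayed on their side of the threshold, 33 lost and 14 gained a call or count, and 14 changed sign. With totals alone and 18S scaling, the signs turned for 2 Mb regions (0.038 and 0.10, and 0.025 and 0.090), for Hba-a2 (0.15 and 0.23) and for 1 Mfn2 region (0.073 and 0.14), and with 18S for the third Mb region (0.018). Hba-a2 also turned with halved counts (0.038), and with 1 library left out it ran from -1.04 to 0.47, Rgs5 from -0.18 to 0.54 and the other Mfn2 region from -0.018 to 0.16. The calls of Pln, Myl2 and Lbh ended without control replicate 1 (adjusted p = 0.177, 0.075 and 0.070), those of Pln and Myl2 without control replicate 2 (0.165 and 0.0932) and that of Lbh without knockout replicate 1 (0.112). All 4 ventricular calls, that of Myl3 included (adjusted p = 0.155), ended with the replicate block, and those of Myl2, Myl3 and Lbh also with totals alone (0.0618, 0.0618 and 0.310), 18S scaling (0.225, 0.225 and 0.580) and the DESeq2 Wald test (0.160, 0.0747 and 0.318). Counts of 74 to 196 limit the precision of Pam more than those of Nppa.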
